A study of Mus musculus with 5 samples.

Results

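The genes described here are 10 components of the Notch pathway: the 4 receptor genes Notch1, Notch2, Notch3 and Notch4, the 4 ligand genes Dll1, Dll4, Jag1 and Jag2, and the target genes Hes1 and Hey1. They were taken by symbol from the RefSeq annotation of the mouse genome mm10 (GRCm38), which holds 21000 protein-coding genes on the chromosomes used. A DNaseI hypersensitive site (DHS) was assigned to one of these genes as a promoter DHS when its edge lay within 1 kb of any annotated transcription start site (TSS) of the gene. It was assigned as another DHS when it lay inside the gene or up to 100 kb from its TSS and the gene had the nearest TSS of all protein-coding genes. By this rule the 10 genes held 146 of the 135173 listed DHSs, which fell into 76 of 68846 regions once the lists were merged. Lists were merged by windows of 500 bp around the middle of each DHS, and a region is called open, or listed, in a stage when such a window of that stage was merged into it. At 11 of the 76 regions the full interval of a DHS from a further stage also overlapped, and these are named with the genes.

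DNaseI-seq maps stretches of chromatin that the nuclease DNase I can reach, and each list gives where such stretches start and end. The cells of 5 populations were sorted from cultures of a 129 strain mouse embryonic stem (ES) cell line that carries GFP in the Brachyury (Bry) locus as a mesoderm reporter. Bry:GFP+ cells gave mesoderm (MES) where they lacked Flk1 and hemangioblast (HB) where they carried it. Hemogenic endothelium (HE) was sorted as Bry:GFP+ Tie2+ cKit+ CD41-, hematopoietic progenitors (HP) by CD41 and macrophages (MAC) by CD11b, and the labels name no other genetic change and no drug. Each stage was 1 list (n = 1; the MAC label names a pair of replicates for its single list), so no spread between replicates could be given and no test was made.

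Notch receptors are transmembrane proteins that are cut when a Delta-like or Jagged ligand on a neighbouring cell binds them. The released intracellular domain enters the nucleus, binds the DNA-binding protein RBPJ with a Mastermind coactivator and switches on targets, among which the HES and HEY repressors are the best known. In the embryo, Notch1 is needed for the blood stem cells that emerge from arterial hemogenic endothelium, whereas the first, yolk sac derived blood cells can form without it.

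In the order MES, HB, HE, HP and MAC, the lists held 21949, 24729, 33305, 17734 and 37456 DHSs with median widths of 800, 900, 1200, 900 and 600 bp. They carry no read counts or scores, and library read totals were not used here, so no depth is given behind a DHS, and a promoter without a listed DHS is not thereby shown to be closed. Both MES markers (T and Mixl1), Kdr in HB, all 4 HE markers (Tek, Kit, Cdh5 and Pecam1) and all 5 MAC markers (Itgam, Csf1r, Cd14, Adgre1 and Lyz2) had a promoter DHS in their own stage, as did Itga2b and Spi1 of the 3 HP markers. The promoter of Gfi1b, the remaining HP marker, was listed only in MAC. Many of these promoters were listed at other stages too: Kdr at all, Kit at all but MAC, Cd14 at all but MES, T in HB, Mixl1 in HB and HE, Pecam1 in HP, Itga2b in HE, and Spi1 in HE and MAC. Tek and Cdh5 were listed in HE alone, and Itgam, Csf1r, Adgre1 and Lyz2 in MAC alone.

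Most of the 10 promoters carried a DHS up to HE, fewer did in HP, and few did in MAC. In each of MES, HB and HE, 9 of the 10 genes (90%, 95% exact Clopper-Pearson interval 55.5 to 99.7%) had a promoter DHS, where 57.2%, 58.9% and 61.7% of all protein-coding genes had one in these stages. In HP 7 genes did (70%, 34.8 to 93.3%, against 50.1% of all genes) and in MAC 3 did (30%, 6.67 to 65.2%, against 50.2%). The shares stood above those of all genes through HP and below them in MAC, but each interval contained the share of all genes. The intervals cover counting error only.

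**Figure D1:**
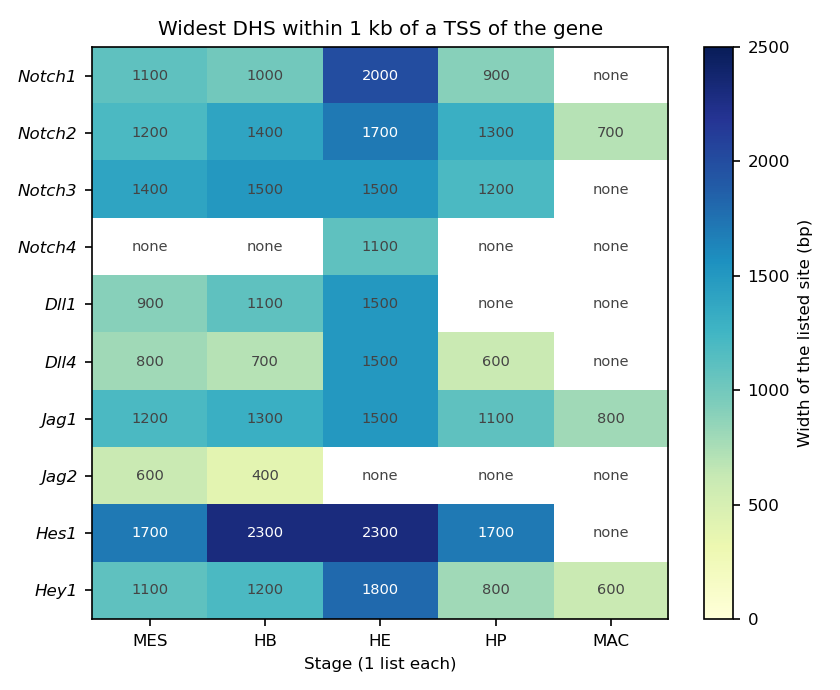
Width in bp of the widest promoter DHS of each gene (rows) in each stage (columns, 1 list each), on a colour scale from 0 to 2500 bp, with none where no DHS lay within 1 kb of a TSS. Notch2, Jag1 and Hey1 have a value in all 5 stages, 4 genes lack one only in MAC, and Notch4 has one only in HE, where for Jag1 the widest DHS (1500 bp) is the intronic one.

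The genes fell into 5 promoter patterns. Notch2, Jag1 and Hey1 had a promoter DHS in all 5 stages, as did 43.4% of all genes. Notch1, Notch3, Dll4 and Hes1 had one from MES through HP and none in MAC, a pattern held by 3.9% of all genes. Dll1 had one in MES, HB and HE (3.96% of all genes), Jag2 in MES and HB (1.42%) and Notch4 in HE alone (3.09%). The grid of promoter DHS widths shows that receptors and ligands were each spread over several of these patterns.

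**Figure D2:**
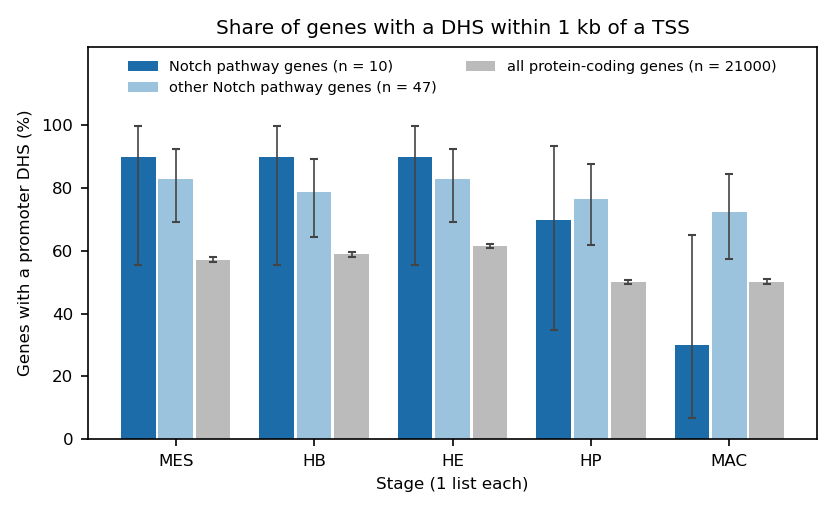
Percentage of genes with a DHS within 1 kb of a TSS in each stage (1 list each) for the 10 Notch pathway genes, 47 other genes of the pathway and all 21000 protein-coding genes; error bars are 95% exact binomial intervals. The 10 genes go from 90% in MES, HB and HE to 70% in HP and 30% in MAC, while the other pathway genes stay between 72.3% and 83%.

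Read from stage to stage, no promoter DHS was lost from MES to HB, where 3.75% of all genes with one in MES lost it, and none was gained (8.83% of all genes without one gained it). From HB to HE Jag2 lost its DHS (5.18% of all genes with one in HB did) and Notch4 gained one (14.2% of all genes without one in HB did). From HE to HP Dll1 and Notch4 were lost, 2 of 9, against 20.1% of all genes. From HP to MAC Notch1, Notch3, Dll4 and Hes1 were lost, 4 of 7, against 10.6% of all genes. The loss at Hes1 hung on the limit of 1 kb and was not seen with a reach of 2 kb. None of the 10 genes gained a promoter DHS in either of the last steps, in which 2.19% and 10.7% of all genes without one did. The HP list is the shortest of the 5.

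Among the receptors, Notch1, the receptor with the most studied part in blood formation, lies at chr2:26457902-26503822 on the minus strand. Its promoter DHS measured 1100, 1000, 2000 and 900 bp from MES to HP, and was not listed in MAC. The HE interval was the widest of these, and at least as wide as 97.5% of all DHSs of HE, the list with the largest median width. Its middle lay at +81, -76, +352 and -48 bp from the TSS in the same order, so all 4 intervals covered the start, and the HP interval lay wholly inside the HB one (900 bp shared). A lncRNA, Gm35978, also starts within 1 kb of the Notch1 promoter DHSs, so these cannot be given to Notch1 alone.

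Notch1 held 13 regions, more than 97.2% of all protein-coding genes, and 8 of its DHSs were listed in HE, 6 in MAC, 3 each in MES and HB and 1 in HP. HE and MAC shared 2 intronic regions, at +20.3 kb in intron 4 and +28.5 kb in intron 15, both with no DHS at other stages. Upstream, a region at -22.1 kb was listed in HB (500 bp), HE (1400 bp) and MAC (200 bp). MES and HB shared a region at +16.8 kb in intron 2 (1000 and 1300 bp) that was not listed later. Another 4 regions were listed only in HE (+10.4 and +5.65 kb in intron 2, and -3.95 and -12.1 kb upstream) and 3 only in MAC (+27.7, +10.7 and -31 kb). Their full intervals did overlap in places: the MAC DHS at +10.7 kb lay inside the HE DHS at +10.4 kb (300 bp shared), and that at +27.7 kb shared 345 bp with the HE DHS at +28.5 kb. A MES DHS of 300 bp at +1.18 kb lay inside the HE promoter DHS. The last of the MAC set and the intron 2 region at +10.7 kb both held the PU.1 letters GAGGAAGT, as did the +20.3 kb region. In MAC, Notch1 thus had DHSs within and upstream of the gene and none at its promoter, and in HP it had the promoter DHS alone.

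A pair of Notch1 sequences comes from its promoter and from an intron: the 250 bases directly before the TSS, from the RefSeq promoter table for GRCm38.p6 (minus strand, chr2:26503823-26504072), and 300 bases of the +20.3 kb region that hold its matches (plus strand, chr2:26483403-26483702). Capitals mark, in the promoter, the TEAD letters CATTCC and the HES letters CACAAG, and in the intron, from the 5′ end, matches to ETS (CTTCCT), CEBP (TTGCCAAA), RBPJ (TGGGAA) and PU.1 (GAGGAAGT, which contains the ETS letters AGGAAG).
Notch1 promoter: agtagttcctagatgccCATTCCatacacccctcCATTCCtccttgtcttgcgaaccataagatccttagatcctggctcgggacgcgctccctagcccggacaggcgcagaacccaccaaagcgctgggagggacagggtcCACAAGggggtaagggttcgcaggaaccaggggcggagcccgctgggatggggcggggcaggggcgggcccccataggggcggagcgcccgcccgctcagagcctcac
Notch1 +20.3 kb: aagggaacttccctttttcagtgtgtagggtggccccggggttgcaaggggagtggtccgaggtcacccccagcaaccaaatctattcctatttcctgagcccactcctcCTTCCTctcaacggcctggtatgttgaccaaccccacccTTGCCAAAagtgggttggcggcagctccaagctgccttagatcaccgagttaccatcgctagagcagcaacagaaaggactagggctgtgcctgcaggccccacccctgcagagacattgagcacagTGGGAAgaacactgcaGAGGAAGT

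Notch2, the receptor known in blood for its role in splenic marginal zone B cells and monocyte subsets, lies at chr3:98013538-98150367 on the plus strand. Its promoter DHS was listed at every stage, with widths of 1200, 1400, 1700, 1300 and 700 bp from MES to MAC. The MAC interval was the narrowest (the MAC list has the smallest median width of the 5) and still covered the TSS, with its middle at +28 bp. The whole MAC interval (700 bp) lay inside each of the other 4.

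The other DHSs of Notch2 were mostly those of MAC. It held 10 regions; MAC listed a DHS in all 10, while MES, HB and HE listed 2 each and HP only the promoter. Of these, 7 regions were listed only in MAC: -18.9 kb upstream, +12.2, +18.9 and +33.1 kb in intron 1, and +43.5, +53.1 and +56 kb in intron 2. Their DHSs were 200 to 800 bp wide. Of the other intron 1 regions, +11.1 kb was listed in MES, HB and MAC (1000, 800 and 300 bp), and +13.9 kb in HE and MAC (1200 and 600 bp). Over all merged regions, 57.1% of those open in MAC were listed in MAC alone. For the 10 genes together, the 7 of Notch2 included, 18 of 33 (54.5%) were.

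The Notch2 sequences are the 250 bases before the TSS (RefSeq promoter table, GRCm38.p6, plus strand, chr3:98013288-98013537), the promoter listed at all stages, and 300 bases of the MAC-only region at +12.2 kb (plus strand, chr3:98025512-98025811), which held 5 of the 12 consensus motifs searched. Capitals mark the HES letters CTAGTG in the promoter, and in the intron ETS (CTTCCT), SOX (ATTGTT), RBPJ (TTCCCA), RUNX (TGTGGT) and FOX (GTAAACA), in that order. The MAC DHS there was only 200 bp wide, and the ETS and SOX matches lay outside it.
Notch2 promoter: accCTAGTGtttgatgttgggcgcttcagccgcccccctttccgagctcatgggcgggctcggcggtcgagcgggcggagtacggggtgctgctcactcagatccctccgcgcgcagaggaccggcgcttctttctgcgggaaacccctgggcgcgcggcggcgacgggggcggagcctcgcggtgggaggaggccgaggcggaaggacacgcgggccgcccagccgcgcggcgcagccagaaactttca
Notch2 +12.2 kb: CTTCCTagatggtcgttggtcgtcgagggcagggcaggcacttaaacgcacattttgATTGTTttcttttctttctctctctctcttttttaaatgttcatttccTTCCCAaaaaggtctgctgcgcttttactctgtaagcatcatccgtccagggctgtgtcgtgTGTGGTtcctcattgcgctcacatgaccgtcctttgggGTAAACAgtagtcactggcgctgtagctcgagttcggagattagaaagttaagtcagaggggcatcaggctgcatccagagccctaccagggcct

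Notch3, a receptor best known in vascular smooth muscle and pericytes, lies at chr17:32120820-32166896 on the minus strand. The promoter DHS spanned 1400 bp in MES, 1500 bp in HB and in HE and 1200 bp in HP, with none in MAC. The HE interval was placed differently from the others. Its middle was at +1016 bp in intron 1 and its edge 267 bp from the nearest TSS, whereas the middles in MES, HB and HP were at +498, +511 and +398 bp and these intervals covered the TSS. The HE interval still shared 932, 995 and 732 bp with those of MES, HB and HP, but its window was not merged with theirs, so the promoter counts as 2 regions. When only DHSs whose middle lay within 1 kb counted, Notch3 had no promoter DHS in HE.

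Notch3 held 8 regions, with 5 DHSs each in MES and HB, 4 in HE and 2 each in HP and MAC. A CpG-rich region at +53 kb, past the 3′ end of the gene, was listed at all 5 stages (600, 1000, 1100, 500 and 900 bp) and held none of the motifs searched. A region over coding exon 24 (+23.5 kb) was listed in MES, HB and HE (300, 400 and 700 bp). Regions at +4.5 kb in intron 2 and +48.4 kb were listed in MES and HB. An intron 2 region at +2.8 kb was listed in MAC alone, as a DHS of 200 bp, and an upstream region at -6.23 kb in HE alone (600 bp).

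Notch4, a receptor largely restricted to endothelial cells, lies at chr17:34564286-34588543 on the plus strand and had no DHS of any kind in MES, HB or HP. In HE it had a promoter DHS of 1100 bp with its middle at +279 bp, close to the middle of the HE width distribution (46th percentile). In HE it also had a DHS of 700 bp at -2.76 kb, and the same region carried a DHS of 400 bp in MAC. MAC further listed regions at -7.81 and -8.51 kb (200 and 400 bp). The HE promoter DHS was lost from the count when only DHSs at or above the median width of their list were used, so this call rested on a DHS of ordinary width. Of the 4 HE markers, Tek and Cdh5 also had a promoter DHS in HE alone, whereas Pecam1 had one in HE and HP and Kit in all stages but MAC.

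The sequences of Notch4 are the 250 bases before the TSS (RefSeq promoter table, GRCm38.p6, plus strand, chr17:34564045-34564294) and 300 bases of the -2.76 kb region (plus strand, chr17:34561435-34561734), the pair of places open in HE. In the promoter, capitals mark 3 ETS matches (CTTCCT or AGGAAG) and 1 TEAD match (CATTCC). In the upstream region they mark 3 RBPJ matches (TTCCCA or TGGGAA) and 3 HES matches (CACAAG or CACCAG), while a SOX match fell outside the printed bases.
Notch4 promoter: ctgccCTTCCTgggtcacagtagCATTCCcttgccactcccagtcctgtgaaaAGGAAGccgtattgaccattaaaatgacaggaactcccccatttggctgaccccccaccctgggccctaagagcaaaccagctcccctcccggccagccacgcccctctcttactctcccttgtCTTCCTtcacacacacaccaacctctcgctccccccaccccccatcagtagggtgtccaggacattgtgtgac
Notch4 -2.76 kb: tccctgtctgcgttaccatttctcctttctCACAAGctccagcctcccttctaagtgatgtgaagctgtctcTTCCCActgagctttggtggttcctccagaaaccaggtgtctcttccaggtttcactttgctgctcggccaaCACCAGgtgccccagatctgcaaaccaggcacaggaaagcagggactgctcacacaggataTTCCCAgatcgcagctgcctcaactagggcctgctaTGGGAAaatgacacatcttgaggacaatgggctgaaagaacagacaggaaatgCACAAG

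Among the ligands, Dll4, the Delta-like ligand of arterial and capillary endothelium, lies at chr2:119325784-119335666 on the plus strand. The widths of its promoter DHS were 800, 700, 1500 and 600 bp from MES to HP, and MAC listed no DHS anywhere in the territory of the gene. Dll4 was the only one of the 10 genes without any MAC DHS. The HP interval covered the TSS with its middle at -264 bp and was narrower than most HP DHSs (30.8th percentile of width). A lncRNA, Gm14207, also starts within 1 kb of these promoter DHSs.

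Dll4 held only 3 regions and all 3 were listed at several stages. The region past its 3′ end at +12.1 kb (chr2:119337370-119338297) was listed in the same 4 stages as the promoter, with widths of 500, 700, 1700 and 900 bp from MES to HP. Both regions were widest in HE, where the list as a whole was widest too. The remaining region, at -3.3 kb, was listed in MES (800 bp) and HE (1200 bp). The +12.1 kb region was CpG-rich and held 6 of the 12 motifs, matched within the group only by 3 other regions with 6 and exceeded only by the Hes1 region at -40.5 kb with 7.

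The sequences of Dll4 are the 250 bases before the TSS (RefSeq promoter table, GRCm38.p6, plus strand, chr2:119325534-119325783) and 300 bases of the +12.1 kb region (plus strand, chr2:119337684-119337983), whose stages of listing were the same. Capitals mark the HES letters CACTAG in the promoter. In the downstream region they mark, in order, TEAD (CATTCC), AP1 (TGATTCA), ETS (AGGAAG and CTTCCT) and RUNX (TGTGGT), while its GATA and HEY matches fell outside the printed bases. The TEAD and AP1 matches lay outside the MES DHS, and the TEAD match also lay outside that of HB.
Dll4 promoter: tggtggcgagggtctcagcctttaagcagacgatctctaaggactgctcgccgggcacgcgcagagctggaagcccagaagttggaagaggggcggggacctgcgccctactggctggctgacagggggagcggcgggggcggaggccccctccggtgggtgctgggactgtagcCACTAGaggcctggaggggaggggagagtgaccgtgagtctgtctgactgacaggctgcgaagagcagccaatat
Dll4 +12.1 kb: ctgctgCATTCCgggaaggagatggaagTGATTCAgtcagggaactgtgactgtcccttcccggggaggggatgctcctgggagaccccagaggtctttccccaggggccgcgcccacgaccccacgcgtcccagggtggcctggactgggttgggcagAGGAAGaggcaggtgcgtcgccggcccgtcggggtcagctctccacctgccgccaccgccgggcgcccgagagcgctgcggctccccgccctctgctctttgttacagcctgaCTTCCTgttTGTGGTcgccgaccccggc

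Dll1, the Delta-like ligand of presomitic mesoderm and neural progenitors, lies at chr17:15367354-15376932 on the minus strand and has 2 curated starts. Its promoter DHS was 900 bp wide in MES, 1100 in HB and 1500 in HE. The MES and HB intervals covered only the inner start, and the HE interval covered both. HP listed no DHS at Dll1 at all, and MAC listed 2 but none at the promoter. The region at -3.93 kb was listed at 1 stage more than the promoter, with widths of 800 bp in MES, 600 bp in HB and HE and 300 bp in MAC. A region at +32.5 kb was listed in MES and HB (500 and 1100 bp) and one at +22.6 kb in MAC (900 bp).

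The upstream region of Dll1 is shown because it was the only one of its regions listed both before and after the loss of the promoter DHS (GRCm38.p6, plus strand, chr17:15380714-15381013). Capitals mark, in order, ETS (CTTCCT), FOX (TGTTTAC), HES (CTCGTG), TEAD (GGAATG) and RBPJ (TGGGAA). The MAC DHS, of 300 bp, covered the ETS and FOX matches but not those of HES, TEAD and RBPJ.
Dll1 -3.93 kb: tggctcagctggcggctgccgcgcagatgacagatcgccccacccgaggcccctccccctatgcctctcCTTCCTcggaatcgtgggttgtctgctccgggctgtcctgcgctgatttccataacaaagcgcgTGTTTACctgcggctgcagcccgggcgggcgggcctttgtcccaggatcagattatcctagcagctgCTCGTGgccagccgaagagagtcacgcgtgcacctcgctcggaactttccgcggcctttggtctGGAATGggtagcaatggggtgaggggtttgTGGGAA

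Jag1, a Jagged ligand of endothelium and many epithelia, lies at chr2:137081451-137116520 on the minus strand and had a promoter DHS in every list. The upstream DHS was 1200, 1300, 1100, 1100 and 800 bp wide from MES to MAC, and in each list it lay just before the start, its edge 71 to 250 bp from it. A second DHS, in intron 2 at +2.01 kb and within 1 kb of a predicted start, was listed in MES, HB, HE and MAC at 500, 600, 1500 and 800 bp. HP lacked it and had only the upstream DHS. Far upstream, MES and HB shared a region at -94.8 kb (700 and 1000 bp) and HE and MAC shared another at -88.1 kb (800 and 300 bp). HP listed no far upstream DHS. Within the gene, an intron 5 region at +17.9 kb was listed in MES alone (400 bp) and an intron 2 region at +6.3 kb in HE alone (1100 bp).

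Jag2, the other Jagged ligand, lies at chr12:112907803-112929812 on the minus strand and held only 2 regions. Its promoter DHS was 600 bp wide in MES and 400 in HB, the latter the narrowest promoter interval of the group. The HB interval did not reach a TSS by 19 bp, and only 7.84% of HB DHSs were as narrow or narrower. In HE, HP and MAC the gene had no promoter DHS and 1 DHS at +31.5 kb, past its 3′ end, of 1100, 500 and 700 bp. No stage listed both regions.

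**Figure D3:**
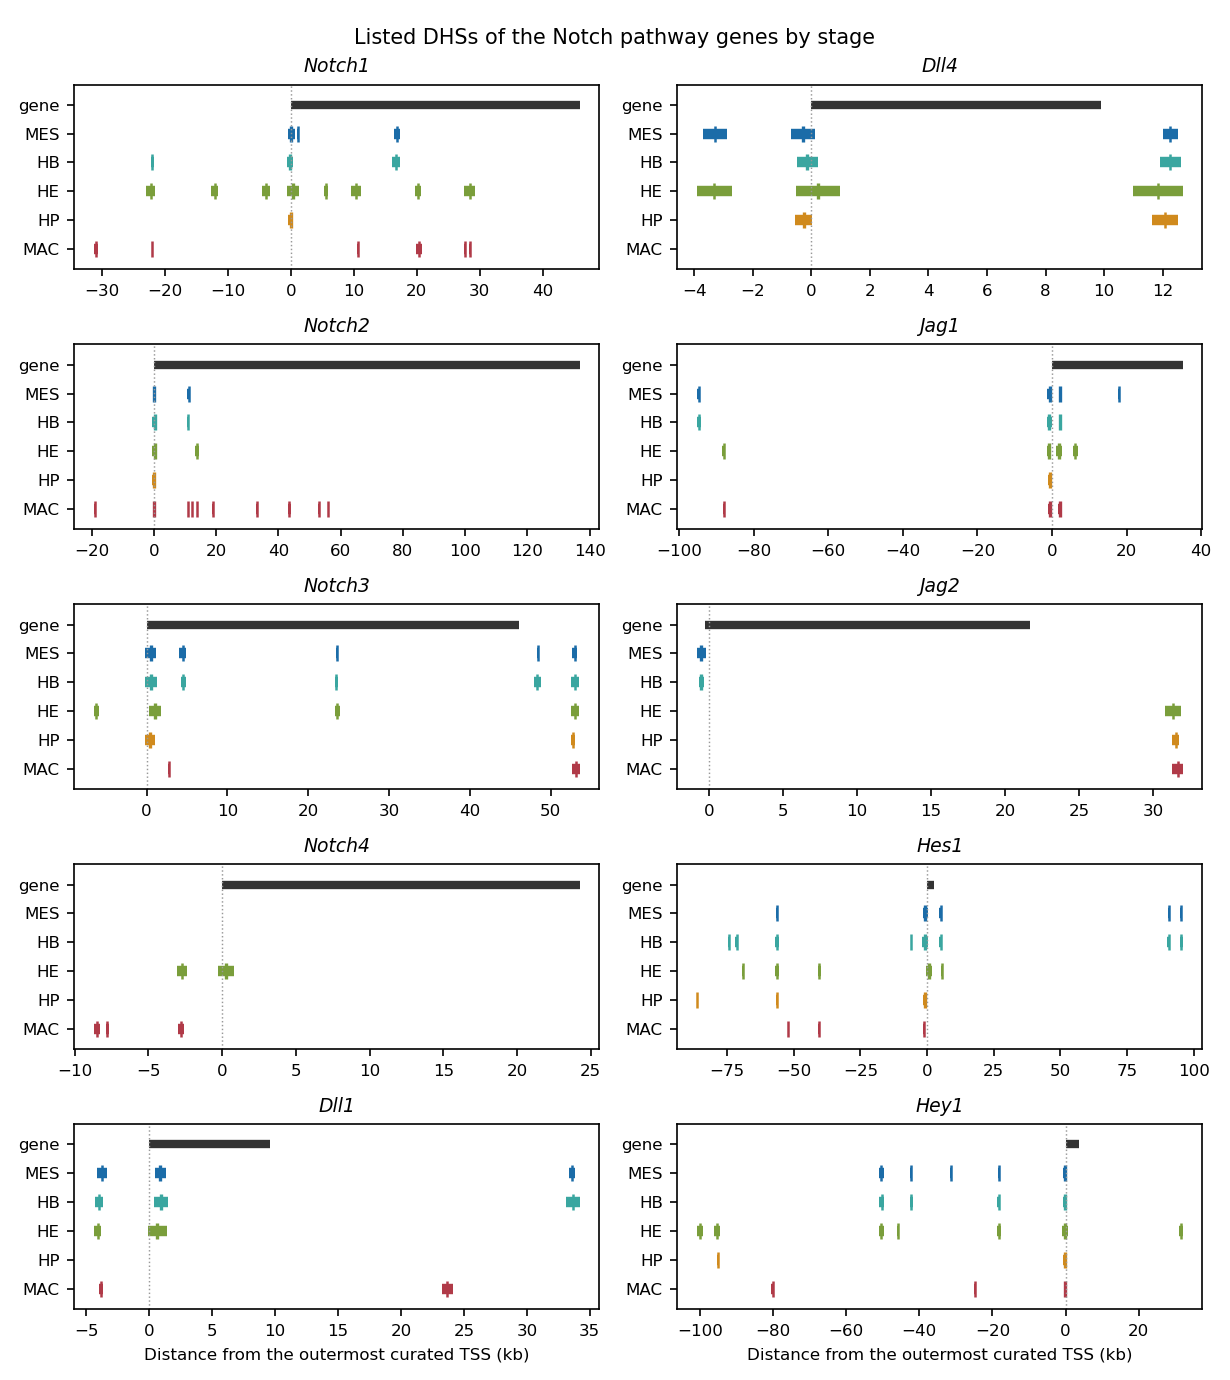
Positions of all 146 listed DHSs of the 10 genes, as the distance in kb from the outermost curated TSS of each gene (dotted line; positive in the direction of transcription), 1 row per stage; bars span each DHS, ticks mark its middle and the dark bar is the gene. For Dll1 the values in the text are from the nearer of 2 starts. Notch2 shows 10 DHSs in MAC and 1 or 2 in the other rows, and the MAC row of Dll4 is empty.

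Of the targets, Hes1, a basic helix-loop-helix repressor induced by Notch in many tissues, lies at chr16:30065357-30067796 on the plus strand. Its promoter carried some of the widest DHSs of each list, of 1700 bp in MES and HP and 2300 bp in HB and HE, all at or above the 99.4th percentile of width. The intervals of MES, HB and HP were centred upstream (-625, -860 and -747 bp) and that of HE downstream at +612 bp, over the gene, so the promoter also counts as 2 regions although the HE interval shared 763, 828 and 641 bp with those of MES, HB and HP. MAC had no DHS within 1 kb. Its nearest, of 600 bp at -1.35 kb, ended 1050 bp from the TSS, 50 bp outside the limit, and with a reach of 2 kb Hes1 counted in all 5 stages. The whole MAC interval lay inside the HB promoter DHS (600 bp shared). The absence of Hes1 from the MAC count thus hung on the limit, unlike that of Notch1, Notch3 and Dll4.

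Hes1 had the most regions of the 10 genes, 15, more than 98.2% of all genes, in a territory of 200 kb. From MES to MAC its DHSs numbered 5, 8, 5, 3 and 3. Besides the promoter, a CpG-rich region at -56.4 kb was listed in MES, HB, HE and HP at 1100, 1200, 1500 and 1000 bp, so it had the same 4 stages as the promoter. In all, 3 regions were shared by MES and HB only (+5.03, +90.7 and +95.3 kb), although an HE DHS centred at +5.61 kb shared 428 bp with the HB interval at the first of them, and 3 more were listed in HB alone (-74.5, -71.5 and -5.96 kb), so HB had the most. The region at -40.5 kb, listed in HE (1100 bp) and MAC (800 bp), held 7 motifs, the PU.1 letters among them. Single-stage regions were also listed at -86.2 kb in HP (400 bp), the only HP-only region of the 10 genes, at -69.1 kb in HE (800 bp) and at -52 kb in MAC (200 bp).

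Hey1, a related repressor active in arterial endothelium, lies at chr3:8663359-8667038 on the minus strand and had a promoter DHS in all lists. Its width was 1100, 1200, 1800, 800 and 600 bp in the order of the stages, and every interval covered the TSS. Its other regions were all intergenic. With the promoter, the gene had 5, 4, 7, 2 and 3 DHSs from MES to MAC, so HE had the most. Regions at -18.3 kb (300, 800 and 1300 bp) and -50.4 kb (1300, 1600 and 1300 bp) were listed in MES, HB and HE. A region at -95.1 kb appeared in HE (1500 bp) and HP (700 bp), and 2 were listed in MAC alone (-24.9 and -80.1 kb). MES and HB shared a region at -42.2 kb (700 and 900 bp), MES alone listed one at -31.4 kb (300 bp), and HE alone listed 2 that held 6 motifs each, at -45.8 kb (700 bp) and +31.5 kb (1100 bp). At the outer limit, the HE DHS 99940 bp from the TSS counted and the HB DHS of the same region at 100157 bp did not. The merged region still counts as open in HB, so the 10 genes have 32 regions open in HB but 31 DHSs.

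Across the group, the genes held a median of 7 regions each (range 2 to 15), against a median of 2 for all protein-coding genes (0 to 49). Per length of the territory within which a DHS would be assigned, the 10 genes had 7.23 regions per 100 kb over 1.05 Mb and all genes had 3.66. Notch1 was the densest at 19.1 and Jag1 the sparsest at 3 per 100 kb. From MES to MAC the 10 genes had 31, 31, 38, 13 and 33 DHSs, and those away from promoters numbered 21, 21, 28, 6 and 29. Of the 76 regions 13 were promoter regions, 42 of the other 63 were intergenic, 19 intronic and 2 over coding exons.

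**Figure D4:**
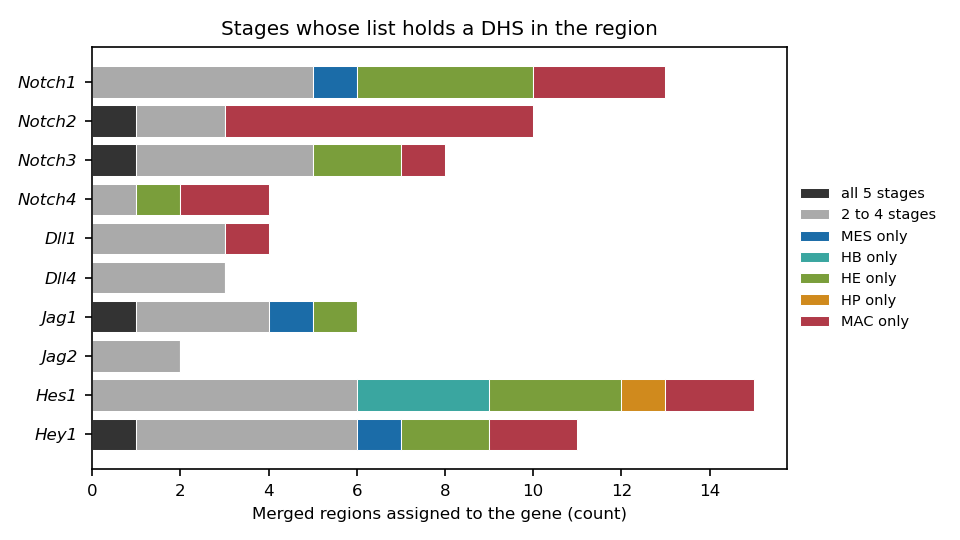
Number of merged regions of each gene by the stages that list a DHS in them (all 5, 2 to 4, or a single stage). The 7 MAC-only regions of Notch2 and the 4 HE-only regions of Notch1 are the longest single-stage bars, and no region of Dll4 or Jag2 was listed at 1 stage only.

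Few of these regions were listed throughout. In numbers, 4 of 76 (5.26%, 1.45 to 12.9%) had a DHS in all 5 stages, the promoters of Notch2, Jag1 and Hey1 and the +53 kb region of Notch3, against 13.2% of all merged regions. Regions of 1 stage made up 38 of 76 (50%, 38.3 to 61.7%, against 60.2%), of which 8 overlapped the full interval of a DHS from another stage, and those of 2 to 4 stages 34 (44.7%, 33.3 to 56.6%, against 26.6%). Regions shared by MES and HB alone were 10 of 76 (13.2%, 6.49 to 22.9%), where 4.72% of all regions had this pattern, and 7 of the 10 genes had at least 1. At 1 of these 10, +5.03 kb of Hes1, an HE interval overlapped. Regions shared by HE and MAC alone numbered 6 (7.89%, 2.95 to 16.4%, against 3.48%), at Notch1, Notch2, Notch4, Jag1 and Hes1. Regions listed from MES through HP but not in MAC were 4 (5.26%, against 2.33%): the promoter of Notch1, the promoter and +12.1 kb regions of Dll4 and the -56.4 kb region of Hes1. The promoters of Notch3 and Hes1 had DHSs in the same 4 stages but are not among them, because their HE windows were not merged with the others. Those of MES, HB and HE alone were also 4 (5.26%, against 2.68%), at Notch3, Dll1 and Hey1. MAC was open at 33 regions (43.4%, 32.1 to 55.3%, against 54.4% of all regions) and HP at 13 (17.1%, 9.43 to 27.5%, against 25.8%). Of regions open in HE, 13 of 38 (34.2%) were listed in HE alone, against 35.4% over all regions, and of those open in HP 1 of 13 was (7.69%, against 8.79%). These intervals treat regions as independent, which regions of 1 gene may not be.

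Pairs of stages were also compared by the regions they shared. MES and HB shared 27 regions, 87.1% of the 31 of MES and 84.4% of the 32 of HB, where 81.5% and 72.3% were shared over all regions. HE held 15 of the 31 MES regions (48.4%, against 64.1%). MAC held 7 of the MES regions (22.6%, against 51.5%) and 5 of the 13 of HP (38.5%, against 66.2%). HE and MAC shared 14, which was 36.8% of the 38 of HE and 42.4% of the 33 of MAC, close to the 42.5% and 37.8% of all regions. Low sharing was not found with MAC alone. HP held 32.3% of the MES regions (against 55.2%), 31.2% of those of HB (against 52.2%) and 26.3% of those of HE (against 42.9%), and HE held 50% of those of HB (against 63.7%). Read from the 13 regions of HP, sharing was not low: MES, HB and HE each held 76.9% of them (against 68.2%, 72.8% and 80.5%). Whether these shares differ beyond chance was not tested.

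CpG-rich sequence, taken as a window of 500 bp with a GC share of at least 0.5 and an observed to expected CpG ratio of at least 0.6, was found at 9 regions of these genes more than 2 kb from a curated TSS. These were 9 of 62 such regions (14.5%, 6.86 to 25.8%), against 3.21% of all such regions. They were the +53 and +4.5 kb regions of Notch3, -3.93 kb of Dll1, -3.3 and +12.1 kb of Dll4, +2.01 kb of Jag1 (a promoter DHS only by its predicted start), -56.4 and +5.03 kb of Hes1 and -100 kb of Hey1. All 9 were listed at 2 or more stages. Within 2 kb of a TSS the share was 9 of 14 (64.3%), near the 65.9% of all such regions.

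The windows were searched on both strands for 12 short consensus sequences, and a match shows only that the letters are present. A window of 500 bp can reach past a narrower DHS, so a match need not lie inside a listed DHS. The letters TGGGAA stood for RBPJ, the DNA-binding partner of cleaved Notch, CACNAG for HES and CACGTG for HEY proteins. For factors of endothelium and blood, AGGAAG stood for the ETS family, GAGGAAGT (which contains the ETS letters) for its myeloid member PU.1, AGATAA for GATA and TGTGGT for RUNX factors. Other families were searched as AACAAT for SOX, TGTTTAC for FOX, GGAATG for TEAD, TGANTCA for AP1 and TTGCNNAA for CEBP.

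The RBPJ letters were found in 32 of the 62 distal windows (51.6%, 38.6 to 64.5%), and in 43.4% of all distal windows. By stage they were in 12 of 21 distal windows of MES (57.1%, against 44.4%), 16 of 23 of HB (69.6%, against 44%), 14 of 29 of HE (48.3%, against 44.5%) and 12 of 29 of MAC (41.4%, against 42.1%). HP had only 6 such windows, 2 with a match. The HB share was the highest, and a window listed at several stages counts in each of them. Most of the HB windows with these letters were at Hes1 and Hey1. Other motifs also differed from all distal windows at single stages, such as GATA in HB (8.7%, against 29.8%) and HEY in MES (23.8%, against 9%). None of these differences was tested.

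The RUNX letters were in 13 of 62 distal windows (21%, 11.7 to 33.2%), fewer than in all distal windows (37.3%), and the interval did not reach that share. The GATA letters were in 11 (17.7%, 9.2 to 29.5%, against 27.3%). The ETS letters were in 42 (67.7%, against 66.2%) and the PU.1 letters in 6 (9.68%, against 9.47%), both near the share of all. By stage the ETS share was below that of all in HB (43.5%, against 57.4%) and above it in HE (79.3%, against 68.9%). In MAC the PU.1 letters were in 5 of 29 (17.2%, against 13.5%): 3 at Notch1, 1 at Notch3 and 1 at Hes1. The HES letters were in 47 (75.8%, against 68.7%) and the HEY letters in 8 (12.9%, against 8.24%), both shares whose intervals contained those of all windows. The other families were also near the share of all distal windows: SOX 19.4% against 21.3%, FOX 9.68% against 7.53%, TEAD 25.8% against 29.3%, AP1 21% against 27.2% and CEBP 22.6% against 22.8%.

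**Figure D5:**
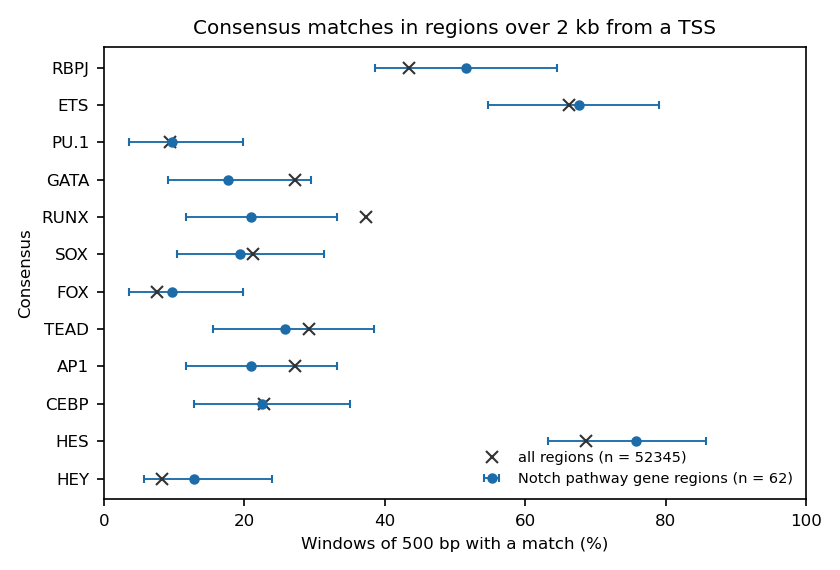
Percentage of 500 bp windows over 2 kb from a protein-coding TSS that hold each consensus, for the 62 regions of the 10 genes (points with 95% exact binomial intervals) and all 52345 such regions (crosses). The cross lies outside the interval for RUNX only (21% against 37.3%).

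The RefSeq promoter table held 8 of the 10 genes, all but Hes1 and Hey1. None of the 8 had the RBPJ letters in the 250 bases before the TSS, where 21.6% of all entries had them. In the same 250 bases, the ETS letters were found at Notch4 and Dll1 (29.5% of all entries), TEAD letters in Notch1 and Notch4 (12.6%) and HES letters in Notch1, Notch2, Notch3 and Dll4 (36.7%). In the wider windows of the regions within 2 kb of a TSS, which also cover sequence downstream of it, the RBPJ letters were in 7 of 14 (50%), against 34.3% of all such windows: at Notch1 (+1.18 kb), Notch3, Notch4, Jag1, Hey1 and a pair of Hes1 regions.

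Of 47 other pathway genes, 29 had a promoter DHS in all 5 stages, where 43.4% of all protein-coding genes did, and 2 in none (Dlk1 and Neurl1b), where 32.4% of all genes did. By stage 39, 37, 39, 36 and 34 had one (83%, 78.7%, 83%, 76.6% and 72.3%) from MES to MAC, against the 50.1% to 61.7% of all genes. The corepressor genes Spen, Tle1 and Tle3 were listed throughout, as were 10 of the 14 genes of receptor processing, among them Adam10 and Adam17, the sheddases, and Ncstn and Aph1a, which encode parts of gamma-secretase. Of the remaining processing genes, Furin, the convertase that cuts the receptor in the Golgi, and Pofut1, which adds O-fucose to it, were listed in HE, HP and MAC, Poglut1 in HE and HP, and the Fringe gene Mfng in MES and HB. Rbpj itself and Maml1 were listed throughout, Maml2 in all but HP, and Maml3 in MES, HB and HP.

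Of the 4 ligand-like genes, Dner was listed throughout, Dll3 from MES through HP and Dlk2 in MES, HB and HE. Of the 8 targets, Hes6, Hes7, Hey2 and Nrarp were listed throughout, Hes3 and Heyl in MES only, Hes5 in HB only and Hes2 in HE and MAC. In the group of ubiquitin and endocytosis genes, 7 of 12 were listed throughout, Neurl1a from MES through HP, Dtx1 in MES, Dtx3 in MES, HE and HP, and Dtx3l in HB, HE and MAC. From HP to MAC the other pathway genes lost 5 promoter DHSs of 36 (Dll3, Poglut1, Maml3, Neurl1a and Dtx3) and gained 3 (Maml2, Dtx3l and Hes2), where 10.6% of all genes with one lost it and 10.7% of those without gained one. The 10 genes lost 4 of 7 and gained none in this step, where the loss at Hes1 hung on the limit of 1 kb.

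For the genes with a promoter DHS at some stages only, likeness to other genes was measured as the summed absolute difference in the number of regions over the 5 stages, among the genes with the same promoter pattern. Of 648 genes with the HE-only pattern of Notch4, 6 had exactly its numbers (0, 0, 2, 0 and 3), among them Adra1a, Edil3 and Eya4. Gpc6 had exactly those of Dll1 (3, 3, 2, 0 and 2), with Cldn11 and Esr2 next at a difference of 1. Mast1 had exactly those of Dll4 (3, 2, 3, 2 and 0), followed by AA986860 and Mnx1 at 1. Adamts20 had exactly those of Jag2 (1 at each stage), followed by Areg and Cep295nl at 1. Genes with more regions had no exact match: Kcnh2, Krt8 and Zfp362 were nearest to Notch3 (a difference of 2), Kifc3, Kazn and Ptch1 to Hes1 (2, 3 and 3), and Vstm2l, Cdca7l and Sema6d to Notch1 (3, 4 and 4).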

How the data were processed

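DNase I digests of the 5 sorted populations had been size-selected to 50 to 300 bp and sequenced. Per the study's methods, the authors trimmed reads with CutAdapt, aligned them to mm10 with Bowtie (SHRiMP for SOLiD reads), kept unique reads, removed duplicates with Picard and called DHSs with DFilter in bins of 100 bp; the submitters' processing notes also name HOMER, and versions are not given in the sources used here. The deposited lists hold start and end positions and no counts; library read totals were not used here, so depth and the precision it gives are not stated.

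Positions were written from base 1. Windows of 500 bp around the middle of each DHS were merged across lists at an overlap of 25%, and distances were taken from the nearest curated TSS of the gene (RefSeq, GRCm38.p6). Python 3.11.15, NumPy 2.4.6, SciPy 1.17.1 and Matplotlib 3.10.9 were used, and the assignment was tested on simulated data. Samples were grouped by their labels, with 1 list per stage and no test. The 10 genes, the 47 other pathway genes, the markers and the motifs were chosen with earlier results of these data known. Named were all 10 genes, other pathway genes with a promoter DHS in 1 to 4 stages, the 3 nearest genes by region numbers (ties in alphabetical order), and promoter regions with others of at least 3 stages or 3 motifs; the regions of fewer stages and motifs that are described were chosen after their values were seen. Alternatives changed the promoter reach, the TSS set, the nearest-gene rule, the linking reach, the widths used and the merging. Some of the other pathway genes are not reported here by name.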

Additional observations from a re-analysis of the deposited data

How the results depend on the processing

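Of 106 counts recomputed under the alternatives, 93 stayed within 1.5 times the reported one, and the 13 that moved did so when narrow DHSs were left out. When the narrower DHSs of each list, those below its median width, were dropped, the 10 genes had 17 DHSs in each of MES, HB and MAC, 20 in HE and 7 in HP, 46 merged regions and 1 region listed at all stages, and 23 of the other pathway genes had a promoter DHS in HP. With the widest DHSs of each list up to about the length of the HP list, they had 20 DHSs in HE, 17 in MAC, 50 merged regions, 2 listed at all stages and 23 listed at 1 stage. Fewer DHSs enter under both by construction. The number of the 10 genes with a promoter DHS stayed within 1.5 times in each stage under every alternative tried. Single promoters did change: Notch4 had no promoter DHS at any stage under both width limits, Jag2 had none and 1 (MES), Dll4 had it in MES and HE only under the median width, and Hey1 lost HP there. With a reach of 100 bp Notch3 and Jag1 kept 3 stages each, and with 2 kb Hes1 had all 5. No paired analysis was possible because each stage has 1 list and no result comes from a test. Depth, which the lists do not give, limits every statement that a DHS was not listed.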
